A study of Homo sapiens with 6 samples.

Results

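The 10 alpha, beta and gamma tubulin genes TUBB, TUBB2A, TUBB2B, TUBB3, TUBB6, TUBA1A, TUBA1B, TUBA1C, TUBA4A and TUBG1 were followed in Hep3B, an established human hepatocellular carcinoma cell line. They were taken by their symbols from the 23228 genes of the deposited RNA-seq tables, and the symbols had been chosen by their normalized reads in the control and PELP1-KD libraries, so the difference between these groups is described for them and not tested. All 10 passed the filter on low counts, as did 14537 genes in all. The libraries were 3 controls, from cells carrying a non-targeting shRNA, and 3 labelled PELP1-KD, from cells carrying an shRNA against PELP1, a scaffold protein that coregulates nuclear receptors. Both shRNAs came in lentiviral particles, the knockdown cells were kept under puromycin selection, and each line was a pool of stable clones grown in RPMI medium. The protocol names a pair of PELP1 shRNAs and the sample titles name the first of them. The labels do not say whether the 3 replicates of a group were separate cultures, so the errors measure the spread between these libraries, which may be technical.

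Alpha and beta tubulin pair into the dimers from which microtubules are built, and gamma tubulin, in a ring complex, starts new microtubules. Humans carry several genes, or isotypes, for alpha and for beta tubulin, whose products are alike over most of their length and differ most in the tail at the end. That tail projects from the microtubule and receives glutamate chains and other marks, while the start of the chain is read by TTC5 as it leaves the ribosome, which leads to decay of tubulin mRNA when free dimers are in excess.

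The libraries held 26758363 to 34456542 reads on genes, and the 10 tubulin genes took 0.273% to 0.301% of them. PELP1 had 4893, 4914 and 5102 normalized reads in the controls, as against 4421, 4825 and 4840 for those labelled PELP1-KD, where normalized reads are reads divided by the relative library size. The groups did not overlap, but the log2 fold change was -0.08 with an edgeR adjusted p of 0.101 (0.0106 with the replicate number as a block, and 0.0180 without PELP1-KD replicate 3). The 10 hepatocyte markers checked were all tested, with a summed level of 11021 to 11219 in the controls and 10043 to 10185 in the libraries labelled PELP1-KD. They did not move together, as 7 fell and 3 rose, with a level of ALB of 4838 to 4988 in the controls and 3169 to 3246 in the others, and of AFP of 2141 to 2254 and 3299 to 3510. Of the other marker lists, 5 of 7 fibroblast genes were tested (summed level 10.7 to 11.8 in the controls and 16.5 to 16.9 in the others, with THY1 at 0, where 2 fell and 2 rose). Of 6 leukocyte genes 3 were tested, and 1 fell and 1 rose (summed level 109 to 117 and 63.4 to 64.5). The level of LYZ was 85.5 to 91.6 in the controls and 29.9 to 31.4 in the others, and that of CD68 was 22.4 to 25.0 and 31.8 to 34.3. Of 5 endothelial genes 1 was tested (0.450 to 0.510 and 0.434 to 0.479, with CDH5, KDR and TEK at 0). The part of these genes in the tubulin values was not tested. A lower share of cells with a transcript and less of it per cell cannot be told apart in these bulk libraries.

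How far the tubulin transcripts can be told from each other depends on their sequence, and the stretches below show the tail-coding end of TUBB beside the most alike pair of beta tubulin genes. Each is the last 60 bases of the coding sequence before the stop codon, read from GRCh37, which has the chromosome coordinates of hg19, with the glutamate codons GAA and GAG in capitals.
TUBB2A: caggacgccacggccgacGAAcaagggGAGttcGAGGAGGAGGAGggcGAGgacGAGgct
TUBB2B: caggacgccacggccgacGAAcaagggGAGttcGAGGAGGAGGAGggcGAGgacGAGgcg
TUBB: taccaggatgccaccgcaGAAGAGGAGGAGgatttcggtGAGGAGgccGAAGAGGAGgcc
The ends of TUBB2A and TUBB2B were alike up to the closing codon, with 8 glutamate codons of 20, and TUBB had 9.

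The start of the coding sequence codes for the stretch that TTC5 reads. The first 60 coding bases of 3 beta tubulin genes follow, with bases that differ from TUBB in capitals in TUBB2A and TUBB6.
TUBB: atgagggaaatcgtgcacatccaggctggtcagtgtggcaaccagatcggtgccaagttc
TUBB2A: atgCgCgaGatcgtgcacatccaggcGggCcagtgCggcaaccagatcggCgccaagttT
TUBB6: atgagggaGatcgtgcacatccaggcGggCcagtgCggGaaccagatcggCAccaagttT
TUBB2A and TUBB6 each had 8 differences from TUBB in this stretch. These are differences in bases. The protein sequences were not compared, so no difference in what TTC5 reads is shown.

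Over the whole coding sequence, TUBB2A and TUBB2B were 98.2% identical, with a longest identical run of 725 bases, and TUBA1A and TUBA1B were 97.2% identical, with a longest run of 221. TUBB was 84.6% identical to TUBB2A, with no identical run over 35 bases. Of the 50-base windows of exon sequence, 68.5% of those of TUBB2A, 59.9% of TUBA1B, 55.4% of TUBB2B, 51.3% of TUBA1C and 50.9% of TUBA1A were also found elsewhere in the assembly. The share was 26.3% for TUBG1, all of it in TUBG2, 8.69% for TUBB3, 8.66% for TUBA4A and 1.24% for TUBB6. For TUBB it was 22.3%, all of it outside tubulin genes, and this search did not cover the haplotype copies of TUBB described further on. With 100-base windows the share was 67.3% for TUBB2A, 54.7% for TUBB2B, 41.3% for TUBA1B, 28.4% for TUBA1C, 25.9% for TUBA1A and 2.20% for TUBB, and the sources differ on the read type. The authors' counting kept reads with several matches and shared some of them out as fractions, so the reads of genes with copies, TUBB among them, are uncertain. TUBA4A overlaps TUBA4B on the other strand, and the counting was set to use strand. TUBA4B had at most 8 reads in a library.

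The alpha genes TUBA1B and TUBA1C gave the highest tubulin levels in Hep3B. The level is given per length, as reads per kilobase of exon per 1e6 TMM-scaled reads, so that genes can be compared. In the control libraries the level of TUBA1B was 817 ± 37.1 (SD, n = 3), above 99.6% of the genes with reads, and that of TUBA1C was 411 ± 3.49. Below them, among the 10 genes, came TUBB6 with 121 ± 4.30, TUBB3 with 79.8 ± 2.49, TUBA1A with 75.8 ± 46.8, TUBB2A with 59.2 ± 2.37, TUBG1 with 58.9 ± 0.764, TUBB2B with 35.4 ± 2.43, TUBA4A with 10.7 ± 0.424 and TUBB with 9.68 ± 0.359. The control values overlapped between TUBB3 and TUBA1A, between TUBA1A and TUBB2A, and between TUBB2A and TUBG1. No other neighbours in this order overlapped in the controls. The level of TUBB, last of the 10, is uncertain, since its annotation spans several sequences, as described further on. Among all tubulin genes, TUBB2C, with 364 ± 9.08, lay between TUBA1C and TUBB6.

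Between the groups, 4 of the 10 genes were called lower in the libraries labelled PELP1-KD (TUBB, TUBA1B, TUBA4A and TUBG1) and 2 were called higher (TUBB3 and TUBB6), at an edgeR adjusted p below 0.05. Of all 14537 genes tested, 53.6% were called by the same rule, 26.8% lower and 26.8% higher, and since the contrast chose the genes, nothing is read from the count. The same 6 genes had groups without overlap, as did 58.8% of all genes, 29.3% on the lower and 29.6% on the higher side. Only TUBB of the 10 was also at least 2-fold lower, as were 4.79% of all genes, and none was at least 2-fold higher, as were 2.85%. The median log2 fold change of the 10 was -0.05, beside 0.00 over all genes. The call of TUBG1 was lost without any 1 of the 3 control libraries or without PELP1-KD replicate 1, and that of TUBB3 without control replicate 1 or 2. TUBB2B gained a call without PELP1-KD replicate 2, and TUBB2A without PELP1-KD replicate 1.

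**Figure D1:**
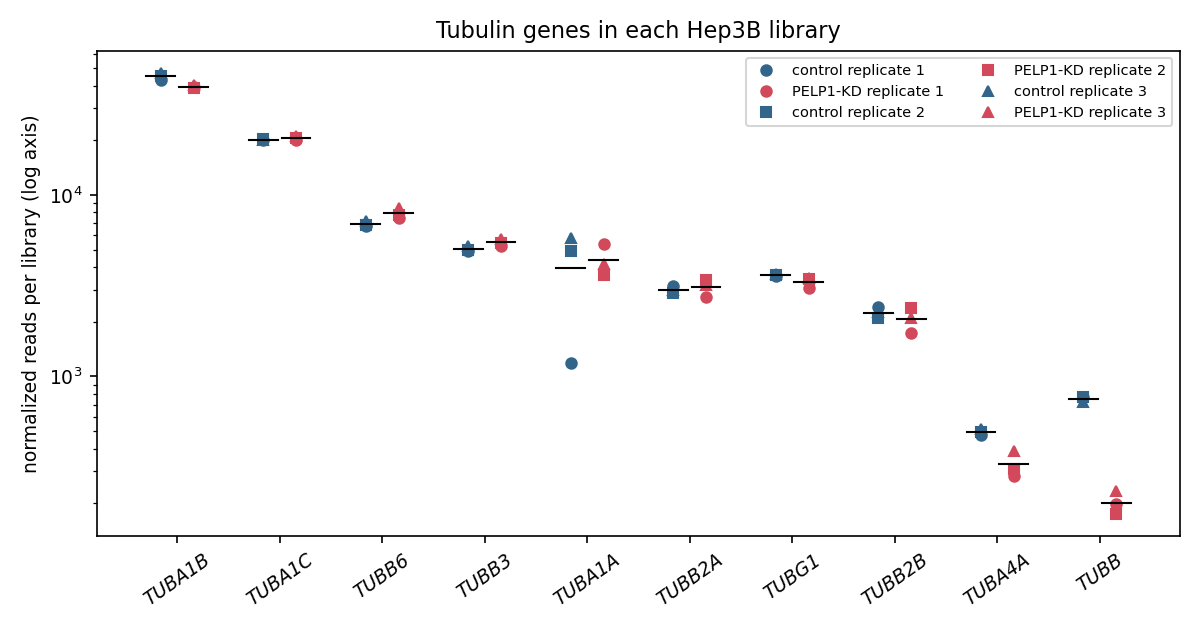
Normalized reads (log axis) of each tubulin gene in the 3 control libraries (blue) and the 3 labelled PELP1-KD (red), with a symbol for each replicate number and a bar at the group mean. TUBB is set apart by the gap between its groups (723 to 772 against 175 to 232), and TUBA1A by control replicate 1 at 1193, below its other 5 libraries.

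TUBB (chr6:30688157-30693195, plus strand, 4 exons), a beta tubulin of dividing cells, had the widest gap of the 10. It had 772, 772 and 723 normalized reads in the controls and 197, 175 and 232 in those labelled PELP1-KD. The latter were 26.7% of the control mean and the highest of them was well under the lowest control, with a log2 fold change of -1.90 (SE 0.09) and a range of -2.02 to -1.81 with a library left out. TUBB2A and TUBB2B (chr6:3153902-3157783 and chr6:3224495-3227968, minus strand) lie 66.7 kb apart, code for near-identical beta tubulins and had groups that overlapped. TUBB2A had 3136, 2895 and 3000 normalized reads in the controls and 2749, 3394 and 3191 in the others, a log2 fold change of 0.05 (SE 0.06). TUBB2B had 2402, 2093 and 2252 against 1742, 2382 and 2085, a log2 fold change of -0.12 (SE 0.12). Both genes were lowest of their 6 libraries in PELP1-KD replicate 1. Their summed reads in the libraries labelled PELP1-KD were 98.5% of the control mean.

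TUBB3 (chr16:89988417-90002505, plus strand), the beta tubulin best known from neurons, had 4922, 4963 and 5212 normalized reads in the controls and 5246, 5433 and 5747 in those labelled PELP1-KD. The groups were apart by a narrow margin, with a log2 fold change of 0.12 (SE 0.04). Of 12 other neuronal markers 4 were tested, of which 2 fell and 1 rose, and RBFOX3, ELAVL3, NEFL and DCX were at 0 in every library. The summed level of the 12 was 6.87 to 7.50 in the controls and 6.45 to 7.49 in the others, under the level of TUBB3 alone. TUBB6 (chr18:12308257-12326568, plus strand), a widely expressed beta tubulin, had 6744, 6808 and 7198 normalized reads in the controls and 7472, 7782 and 8478 in the others. Its log2 fold change was 0.19 (SE 0.04), between 0.14 and 0.23 with a library left out.

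TUBA1B (chr12:49521567-49525304, minus strand), the most abundant alpha tubulin transcript here, had 42963, 44923 and 47043 normalized reads in the controls and 39146, 38562 and 40346 in those labelled PELP1-KD. It lay lower in each of the latter, at 87.5% of the control mean and a log2 fold change of -0.19 (SE 0.03). TUBA1C (chr12:49658865-49667113, plus strand) had 19944, 20260 and 19993 against 19932, 20527 and 21034. Its groups overlapped, with a log2 fold change of 0.03 (SE 0.03). TUBA4A (chr2:220115001-220118638, minus strand), an alpha tubulin, had 476, 496 and 515 normalized reads in the controls and 284, 310 and 388 in the others. It stood at 66.0% of the control mean, with a log2 fold change of -0.60 (SE 0.09), and PELP1-KD replicate 3 lay nearest to the controls.

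TUBG1 (chr17:40761358-40767256, plus strand), the main gamma tubulin, which nucleates microtubules at the centrosome, had 3564, 3613 and 3657 normalized reads in the controls and 3063, 3428 and 3475 in those labelled PELP1-KD. The latter were 92.0% of the control mean, a log2 fold change of -0.12 (SE 0.05) that narrowed to -0.06 without PELP1-KD replicate 1. Its copy TUBG2, 44.01 kb away, had 438 ± 29.3 normalized reads in the controls and 401 ± 14.8 in the others and was not called.

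TUBA1A (chr12:49578583-49582861, minus strand), an alpha tubulin prominent in developing neurons, was set apart by 1 library and not by group. It had 1193, 4880 and 5821 normalized reads in control replicates 1, 2 and 3, with 5358, 3631 and 4182 in those labelled PELP1-KD. Control replicate 1 was the lowest of the 6 by a wide margin, and the other 5 overlapped between the groups. The log2 fold change was 0.15 (SE 0.64), and it was -0.28 without control replicate 1, -0.02 without PELP1-KD replicate 1 and 0.54 without control replicate 3. Among the 6410 genes that averaged 1000 or more normalized reads, TUBA1A had the largest SD within groups, 0.909 on the log2 scale, where the next largest was 0.257 and the median 0.0516. It was the 1 gene of these 6410 in which a library lay under 50% or over 200% of both others of its group. TUBB2B ranked 13th and TUBB2A 140th of the 6410 by the same measure. Among the 11769 genes that averaged 100 or more normalized reads, TUBA1A ranked 9th.

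The near-copies of TUBA1A were not higher in control replicate 1. The summed normalized reads of TUBA1A, TUBA1B and TUBA1C were 64099 in that library and 70064 and 72858 in the other controls, beside 64436, 62720 and 65562 in those labelled PELP1-KD. TUBA1B was itself lowest among the controls in replicate 1, and TUBA1C was level across them. Among the other genes with much repeated exon sequence, the SD within groups was 0.0288 for TUBA1C, 0.0519 for TUBA1B, 0.118 for TUBB2A and 0.175 for TUBB2B. Of the 50-base windows of TUBA1A, 14.8% were also found outside tubulin genes, where reads were not followed. The part of shared reads in the value of TUBA1A was not tested.

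**Figure D2:**
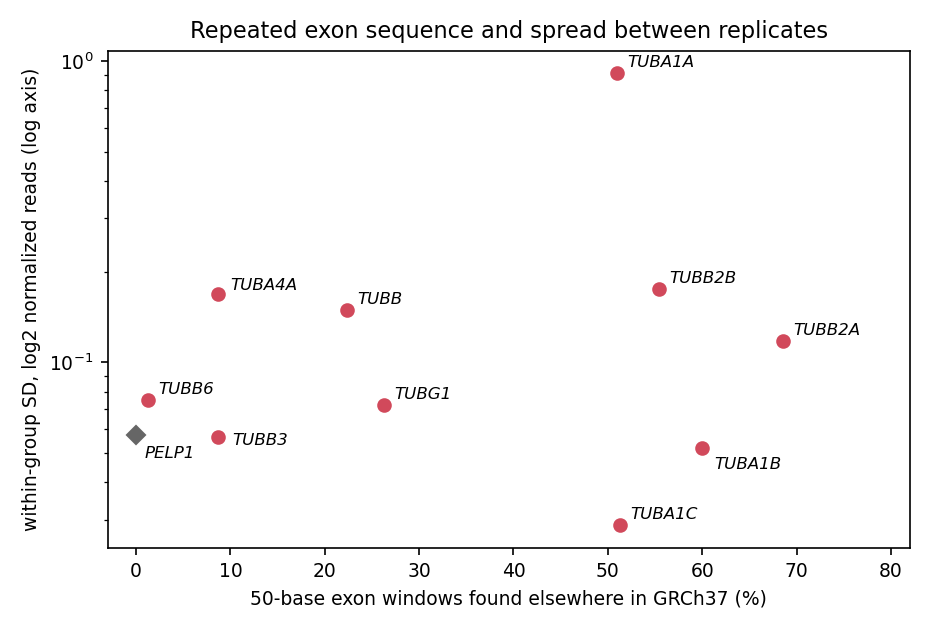
Share of 50-base exon windows that are also found elsewhere in GRCh37 (x axis, %) and SD within groups of log2 normalized reads (y axis, log scale) for the 10 tubulin genes (circles) and PELP1 (diamond). TUBA1A lies at 50.9% and 0.909. Of the genes with a like share of repeated windows, TUBA1C lies at 51.3% and 0.0288 and TUBB2B at 55.4% and 0.175.

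As parts of the alpha and beta tubulin transcript pools, the isotypes kept their order in both groups, with TUBA1B and TUBB2C (TUBB4B in current naming) first. The pools are the summed per-length levels of 10 alpha and 11 beta genes, and no share was tested. TUBA1B made up 62.1% ± 1.45 of the alpha pool in the controls and 58.3% ± 0.356 in the libraries labelled PELP1-KD (SD, n = 3 each). TUBA1C went with 31.3% ± 1.95 and 34.2% ± 0.944, TUBA1A with 5.62% ± 3.29 and 6.83% ± 1.33, and TUBA4A with 0.811% ± 0.0218 and 0.573% ± 0.0856. In control replicate 1 alone, TUBA1A was at 1.86% of the pool. The beta pool held 17.6% ± 0.251 TUBB6 in the controls and 21.2% ± 0.436 in the others, and 11.6% ± 0.120 and 13.3% ± 0.267 TUBB3. TUBB as counted was a small part of it, with 1.41% ± 0.0824 in the controls and 0.395% ± 0.0474 in the others. This share is as uncertain as the level of TUBB. Without TUBB, the summed level of the beta genes in the libraries labelled PELP1-KD was 96.2% of the control mean, and with TUBB 95.2%. The alpha pool stood at 93.2% of the control mean, and its groups overlapped, as did those of the beta pool. Without TUBA1A, the alpha genes stood at 92.2%, with summed levels of 1202, 1244 and 1278 in the controls and 1127, 1130 and 1174 in the others, which did not overlap.

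**Figure D3:**
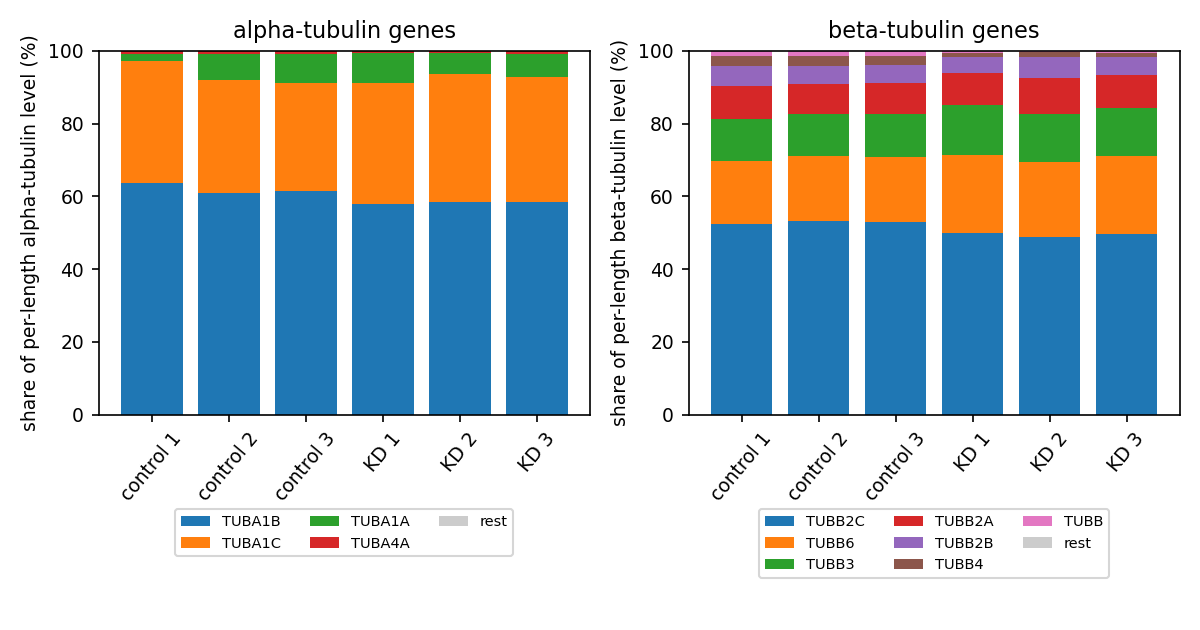
Share of each gene in the summed per-length level of alpha tubulin (left) and beta tubulin (right) in each library, in percent, stacked to 100 with genes under 0.3% joined as rest. TUBA1A is a thin band in control 1 (1.86%), and TUBB6 widens from 17.6% in the controls to 21.2% in the libraries labelled PELP1-KD.

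Of the 15 other tubulin genes, 7 were tested, of which 4 fell and none rose at an edgeR adjusted p below 0.05. At an unadjusted p below 0.05, and in DESeq2, none of them rose either. Their median log2 fold change was -0.17. Over all genes tested, 53.6% were called, 26.8% lower and 26.8% higher. TUBB4 (TUBB4A in current naming), a beta tubulin best known from the brain, fell from 1266 ± 32.6 to 576 ± 36.2 normalized reads, with a log2 fold change of -1.14 (SE 0.06, adjusted p = 2.90e-12). TUBD1, the delta tubulin of centrioles, fell by 0.42 on the log2 scale (SE 0.08, adjusted p = 0.000207). TUBB2C, the beta tubulin gene with the highest level as counted here, fell from 18177 ± 454 to 16183 ± 929 normalized reads, by 0.17 on the log2 scale (SE 0.04, adjusted p = 0.000866). TUBA8 had 114 ± 8.84 and 88.9 ± 12.2 normalized reads, and its call was lost in DESeq2 (adjusted p = 0.130), as it was without control replicate 2 or 3 or PELP1-KD replicate 3 (adjusted p = 0.0838, 0.147 and 0.192). The epsilon tubulin TUBE1, with 251 ± 1.95 and 241 ± 9.79, was not called, nor was TUBBP5. Of the 8 that were not tested, TUBA3C had 0 reads in every library.

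**Figure D4:**
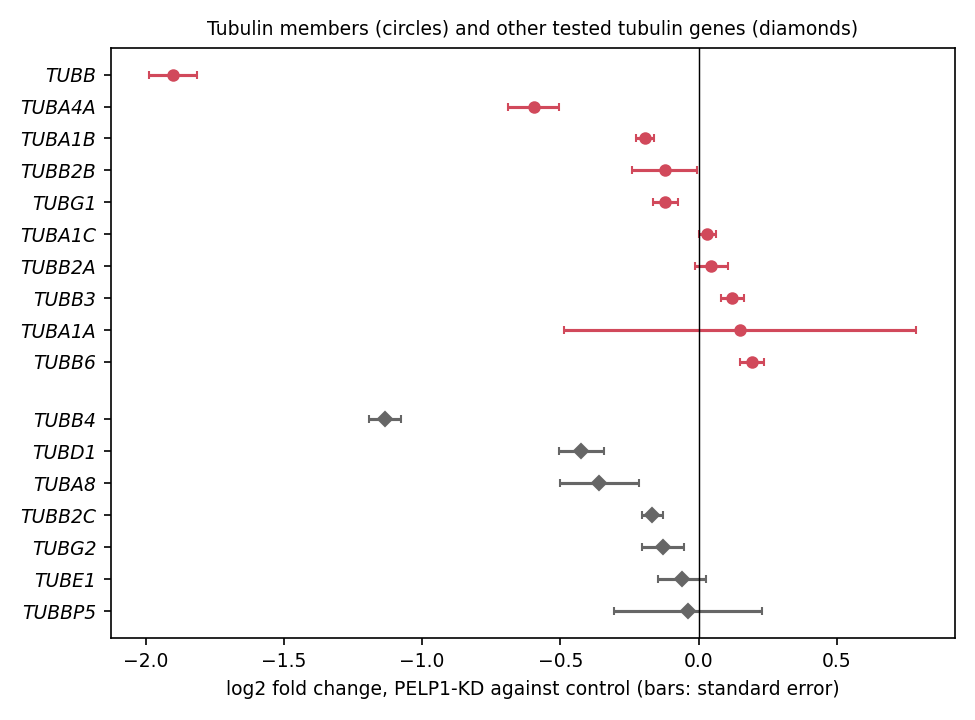
Log2 fold change of the libraries labelled PELP1-KD against the controls, with bars for the standard error, for the 10 tubulin genes (circles) and the 7 other tested tubulin genes (diamonds). TUBB at -1.90 and TUBB4 at -1.14 lie farthest from 0, and TUBA1A has the widest bar (SE 0.64).

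Genes that fold tubulin moved in both directions. Tubulin is folded by prefoldin and the CCT chaperonin and joined into dimers by the TBC cofactors. Of 22 such genes tested, 6 fell, 3 rose and 13 were not called, and their median log2 fold change was -0.05. Over all genes tested, 26.8% fell and 26.8% rose. With the replicate number as a block, 10 of the folding genes fell. Over all genes tested the block also raised the calls, to 4415 lower and 4413 higher from 3889 and 3899. ARL2, the small GTPase that works with the cofactors, fell from 2076 ± 41.0 to 1174 ± 87.9 normalized reads, a log2 fold change of -0.82 (SE 0.05, adjusted p = 8.53e-11). The chaperonin subunits CCT8 and CCT5 fell by 0.21 and 0.15 on the log2 scale (adjusted p = 3.26e-05 and 0.000251), and the cofactor TBCE rose by 0.30 (adjusted p = 5.99e-06). The prefoldin subunit PFDN5 rose by 0.13 (adjusted p = 0.0110), a call that was lost without control replicate 2 (adjusted p = 0.0574), when 1 gene of the list was called higher. TBCEL was called higher with overlapping groups (adjusted p = 0.0304), a call lost without any 1 of 4 libraries (control replicates 2 and 3, PELP1-KD replicates 1 and 2; adjusted p = 0.0739, 0.120, 0.173 and 0.120) and in DESeq2 (adjusted p = 0.0567).

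The partners of TUBG1 in the ring complex and in augmin, which branches microtubules, moved in both directions. Of 22 tested, 5 fell, 4 rose and 13 were not called, with a median log2 fold change of -0.04. Over all genes tested, 53.6% were called, 26.8% lower and 26.8% higher. PCNT, a scaffold of the centrosome, and the augmin subunit HAUS2 fell by 0.23 and 0.21 on the log2 scale (adjusted p = 0.000657 and 0.00176). AKAP9, a Golgi and centrosome scaffold, rose by 0.34 and the ring component TUBGCP6 by 0.28 (adjusted p = 1.57e-05 and 4.13e-05), and HAUS5 rose by 0.17 (adjusted p = 0.00533). MZT2A fell by 0.18 (adjusted p = 0.00867), but not without PELP1-KD replicate 2 (adjusted p = 0.0650), when 2 genes of the list were called lower.

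Of 22 tubulin modifying enzymes tested, 5 fell and 3 rose, with a median log2 fold change of 0.00. Among all genes tested, 26.8% fell and 26.8% rose. TTLL3, a glycine ligase, fell from 133.6 ± 17.7 to 79.0 ± 7.84 normalized reads (log2 fold change -0.76, adjusted p = 0.000175), and AGBL5, which trims glutamate, fell by 0.32 (adjusted p = 0.000541). VASH1, which removes the closing tyrosine of alpha tubulin, fell from 32.1 ± 10.7 to 11.6 ± 2.55 normalized reads (adjusted p = 0.000892). The tubulin deacetylases SIRT2 and HDAC6 rose by 0.40 and 0.25 on the log2 scale (adjusted p = 1.01e-06 and 4.87e-05), and KIAA0895L, a tyrosine-removing peptidase now named MATCAP1, rose by 0.35 (adjusted p = 0.000253).

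Of the 9 genes of tubulin mRNA autoregulation, all tested, 2 fell and 3 rose, with a median log2 fold change of 0.07. The shares over all genes were 26.8% lower and 26.8% higher. SCAPER, the adaptor that TTC5 engages, rose by 0.23 on the log2 scale (adjusted p = 0.00204), as did CNOT10 by 0.23 and CNOT7 by 0.17 (adjusted p = 0.000224 and 0.00454). C2orf29, now named CNOT11, and CNOT3 fell by 0.17 and 0.15 (adjusted p = 0.000845 and 0.00567). These subunits belong to the CCR4-NOT complex, which shortens mRNA tails.

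Of 41 microtubule-associated proteins and regulators tested, 15 fell, 5 rose and 21 were not called, with a median log2 fold change of -0.06, and 5 of the 15 fell by at least 2-fold. Of all genes, 26.8% fell, 26.8% rose and 4.79% fell by at least 2-fold. EML4, which binds microtubules, fell from 5147 ± 79.1 to 3536 ± 54.1 normalized reads (log2 fold change -0.54, adjusted p = 2.30e-10). MAP7, which recruits kinesin, fell by 1.04 and TACC3, a spindle protein, by 0.45 on the log2 scale (adjusted p = 7.86e-10 and 3.36e-08). CLIP1, which tracks growing ends, rose by 0.29, TACC2 by 0.37 and MAP1A by 0.38 (adjusted p = 2.70e-06, 7.29e-06 and 6.32e-05).

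TUBB lies in the part of chromosome 6 for which hg19 holds alternative haplotypes, and the deposited annotation places it on 8 sequences, of which 7 are haplotypes. Its length in the tables is 19865 bases, while its exons on the primary chromosome cover 2483, the length used here. Its reads were not whole numbers in 6 of 6 libraries. Of 210 other genes with exons on such haplotypes, 36.2% were tested, beside 62.6% of all genes, and the 76 tested had a median of 69.7 normalized reads, beside 789 for the other tested genes. Their median SD within groups was 0.456 on the log2 scale, beside 0.0772, and that of TUBB was 0.149, the eighth smallest of 77. These SDs cover the spread between libraries only, and how uncertain the level of TUBB is beside other genes was not measured. With the length of 19865 bases its control level would be 1.21 in place of 9.68. The part of the haplotypes in its reads and in its fold change was not tested, and the haplotype sequences were not analysed here.

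Of the 76, 17 fell and 8 rose, or 32.9% called beside 53.6% of all genes, with a median log2 fold change of -0.01. The 17 include LOC100293534, C4A and C4B, whose values were identical, and DDX39B with ATP6V1G2-DDX39B, whose values were identical too. Among those that fell were PPP1R11 and LOC100293534 (log2 fold changes of -1.63 and -1.21, adjusted p = 7.01e-06 and 2.99e-05), and among those that rose were DDR1 and TRIM31 (0.92 and 1.37, adjusted p = 6.08e-06 and 0.000307). All 38 genes within 500 kb of TUBB are annotated on the haplotypes. Of 16 tested, 2 fell (HCG18 and TRIM39) and 2 rose (DDR1 and RPP21), and with the replicate number as a block 5 fell and 4 rose. With that block, 4415 of all genes tested fell and 4413 rose, beside 3889 and 3899 without it. The call of TRIM39 was lost in DESeq2 (adjusted p = 0.114) and with at least 10 reads required in every library, and that of RPP21 was lost without a filter (adjusted p = 0.119). Each was also lost without any 1 of 3 libraries. That of TRIM39 was lost without control replicate 2, PELP1-KD replicate 1 or PELP1-KD replicate 3 (adjusted p = 0.0691, 0.0873 and 0.0728), and that of RPP21 without control replicate 1, control replicate 2 or PELP1-KD replicate 3 (adjusted p = 0.0919, 0.120 and 0.228).

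The nearest tested gene on each side had a smaller difference than TUBB, and the difference between the genes was not tested. FLOT1, a membrane raft protein that lies 2.32 kb after TUBB, had 85.7 ± 2.67 and 74.7 ± 31.8 normalized reads, a log2 fold change of -0.18 (SE 0.21, adjusted p = 0.513). It was called lower without PELP1-KD replicate 3 (log2 fold change -0.55, adjusted p = 0.0168). MDC1, a DNA damage mediator 2.70 kb before TUBB, had 56.8 ± 21.0 and 36.3 ± 14.3, a log2 fold change of -0.62 (SE 0.29, adjusted p = 0.0807, or 0.0162 with the replicate block, 0.00972 without control replicate 2 and 0.00429 without PELP1-KD replicate 3). DHX16, a splicing helicase, had a log2 fold change of 1.02 (SE 0.47, adjusted p = 0.0911, or 0.0112 with the replicate block, 0.0400 without PELP1-KD replicate 1 and 0.00407 without PELP1-KD replicate 3), and MRPS18B of 0.82 (SE 0.49, adjusted p = 0.169, or 0.0313 without PELP1-KD replicate 1). Farther after TUBB, DDR1, a collagen receptor, rose by 0.92 on the log2 scale (SE 0.13, adjusted p = 6.08e-06), and GTF2H4 was not called (-0.04, SE 0.08, adjusted p = 0.686). Beside the 26.8% of all genes that rose and the 26.8% that fell, 7 of 10 neighbours tested within 500 kb rose and 0 fell around TUBB6, 15 of 37 rose and 5 fell around TUBG1, 11 of 23 rose and 4 fell around TUBB3, and 8 of 23 rose and 5 fell around TUBA4A. Around TUBA1A, TUBA1B and TUBA1C, which share most of their neighbours, 13 rose in each case (of 26, 26 and 25) and 2, 1 and 2 fell. Around TUBB2A and TUBB2B, 2 rose and 5 fell in each case (of 11 and 12).

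**Figure D5:**
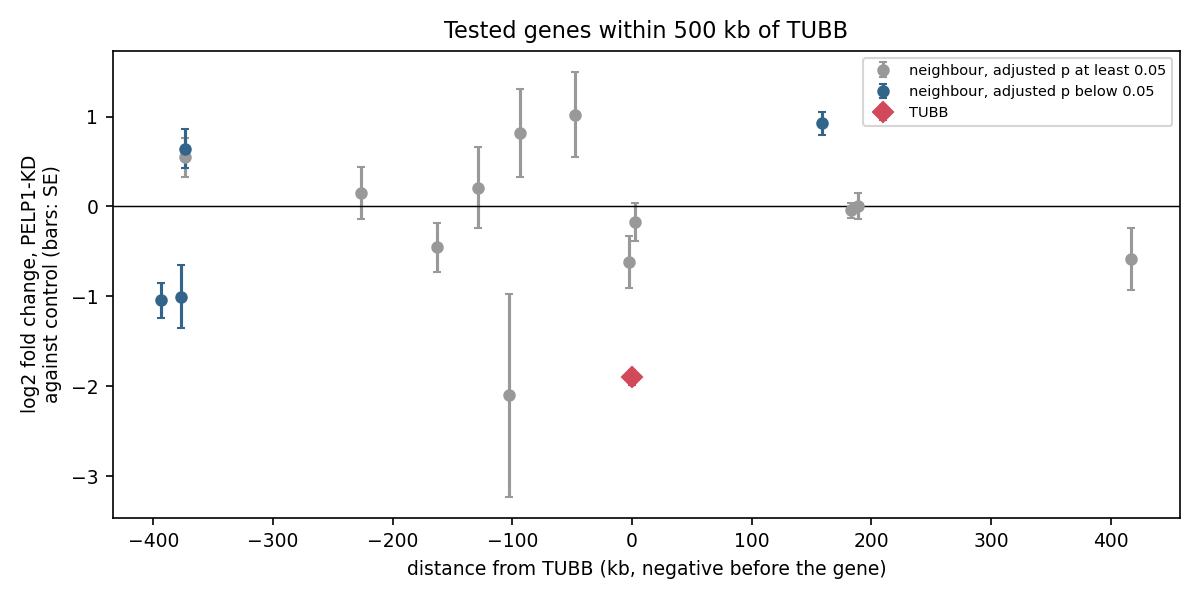
Log2 fold change, with bars for the standard error, of the 16 tested genes within 500 kb of TUBB against their distance from it in kb (negative before the gene), with TUBB at 0 as a diamond. TUBB at -1.90 has a short bar (SE 0.09) and lies below its nearest neighbours MDC1 (-0.62) and FLOT1 (-0.18), while the gene with the longest bar, PPP1R10, is at -2.10 (SE 1.13) and was not called.

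The genes whose pattern over the 6 libraries was most like that of TUBB were taken by the distance between centred log2 normalized reads, among 11971 genes whose higher group averaged 100 or more normalized reads. They were SPG20, now named SPART, of endosome traffic (distance 0.158), EMP2, a membrane protein (0.198), SPOCK2, a matrix proteoglycan (0.203), EEF1A2, an elongation factor (0.236), and SERPINA7, the thyroxine carrier (0.237). SPG20 had 337 ± 12.3 normalized reads in the controls and 88.9 ± 11.3 in the others. EEF1A2 had 1583 ± 50.5 and 397 ± 51.0. None of the 5 lies on chromosome 6, and the pattern is a description of libraries that also chose TUBB.

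In the RefSeq promoter windows of GRCh38.p14, from 250 bases before to 50 after each start, all 10 genes had at least 1 of 15 windows. The letters CCAAT, on either strand, stood in a window of 7 genes, and in 9 of the 15 windows, beside 34.6% of all 35116 windows. GGGCGG stood in windows of 9 genes (10 of 15 windows, beside 45.0% of all), CACGTG in those of TUBB and TUBA1C (2 of 15, beside 7.26%), TTTNNCGC in those of TUBB6 and TUBG1 (2 of 15, beside 6.89%), and TATAAA in that of TUBB2A (1 of 15, beside 11.5%). TUBA1B and TUBA4A had GGGCGG alone of these, and TUBA1A had CCAAT alone. Both strands were searched, and matches of different motifs may overlap.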

How the data were processed

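RNA-seq of 6 Hep3B libraries was analysed, 3 control and 3 labelled PELP1-KD, grouped by the labels. The authors deposited estimated counts per gene without normalization, as fractions where a read matched several places or genes. Per the file headers they were made with featureCounts 1.5.0-p1 by strand on hg19 exons, with a minimum mapping quality of 2. The submitters' processing notes name HISAT2 and SAMtools, and the paper TopHat2 and HTSeq. Library kit (TruSeq stranded mRNA or KAPA RiboErase), RNA isolation and read type also differ between the sources.

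Estimated counts were rounded to whole numbers and tested with edgeR 4.0.16 (R 4.3.3; filterByExpr, TMM, robust glmQLFit and glmQLFTest, ~ group, Benjamini-Hochberg over 14537 genes, adjusted p below 0.05). Normalized reads and levels use TMM-scaled library sizes. No p is given for the 10 tubulin genes, which were chosen on this contrast. They and all lists were chosen with earlier results of these data known. Genes named are the 10, PELP1, other tubulin genes with at least 100 normalized reads in either group (TUBBP5, TUBA3C and TUBA4B, below that, were named after their values were seen, as were ALB, AFP, LYZ, CD68, C4A, C4B, DDX39B, ATP6V1G2-DDX39B and PPP1R10), up to 3 per list and direction by p, the 3 tested genes nearest to TUBB on each side, and the 5 most like TUBB. Some genes that this rule names and some sequences are not reported here.

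Exon and coding sequences were read from GRCh37 with a GENCODE annotation, and windows of 50 and 100 bases were searched over that assembly on both strands. On simulated counts for this comparison, edgeR recovered 199 of 200 genes changed 2-fold with 6 false calls among 14450 genes. DESeq2 1.42.0 recovered 197 of the 200. Recovery of changes smaller than 2-fold was not tested, nor was recovery by the spread of a gene between libraries.

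The replicate numbers come from the labels. Deviations from the group means of same-numbered libraries correlated at 0.336, 0.247 and 0.666 over 6370 genes, and the block was treated as pairing. Only replicate 3 stood apart, so a pairing of numbers 1 and 2 is not shown. Control replicate 2 and PELP1-KD replicate 1 correlated at 0.418, and control replicate 1 and PELP1-KD replicate 2 at 0.244. Replicates differed by more than sampling noise (chi-square per degree of freedom 1.94 to 7.02). Alternatives were DESeq2's size factors in edgeR, DESeq2, no filter, at least 10 reads in every library, fractions cut off, the replicate block, each library left out, distances of 250 and 1000 kb, the length column of the tables and TPM. Sums over near-copies were an addition made after seeing the data.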

Additional observations from a re-analysis of the deposited data

How the results depend on the processing

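The 10 tubulin genes kept 4 lower and 2 higher calls under every other normalization, filter, rounding, test and the replicate block. Over all genes, these settings called 3554 to 4415 lower and 3339 to 4413 higher. With a library left out the counts of the 10 ran from 3 to 5 lower and 1 to 3 higher, beside 3387 to 3989 and 3379 to 3949 over all genes. The 10 were chosen on this contrast in the same libraries, so nothing is read from the kept calls. The log2 fold change changed sign for TUBB2A (-0.019 without PELP1-KD replicate 2, in a range up to 0.13 with a library left out), for TUBA1A (-0.28 without control replicate 1 and -0.017 without PELP1-KD replicate 1, up to 0.54) and for FLOT1 (0.067 without PELP1-KD replicate 2, down to -0.55). The cause was not tested. With the replicate block as pairing, 10 folding genes were called lower (6 without it), 5 neighbours of TUBB lower and 4 higher (2 each without it), and PELP1 had a log2 fold change of -0.083 with an edgeR adjusted p of 0.0106. Over all genes tested, 4415 were called lower and 4413 higher with the block, beside 3889 and 3899 without it. For MDC1 and DHX16 the block also gained a call. It changed no other call among the genes named. Within 500 kb of TUBB, there were 4 lower and 1 higher without a filter and 1 lower with at least 10 reads in every library. By distance, there were 0 lower and 1 higher within 250 kb, and 10 lower and 6 higher within 1000 kb. The larger distance takes in more genes, and DDX39B and ATP6V1G2-DDX39B, with identical values, both count among the lower. Over all genes tested, 26.8% fell and 26.8% rose, and nothing is read from these counts. With a library left out, the neighbours within 500 kb ran from 2 to 4 lower and 1 to 5 higher. In the same fits, folding genes ran from 5 to 9 lower and 1 to 4 higher, ring complex and augmin genes from 2 to 5 lower, and the log2 fold change of PELP1 from -0.10 to -0.040. The order of levels held for all 10 genes under the other settings, but not with every control library left out (6 to 10 kept their rank). Without control replicate 1, 6 of 10 kept their rank. Without control replicate 3, TUBA1A fell below TUBB2A and TUBG1. With the length column of the tables, the share of TUBB in beta tubulin was 0.178% in the controls and 0.0495% in the libraries labelled PELP1-KD. The errors given cover the spread between libraries only.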
